A study of Mus musculus with 32 samples.

Results

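Marco, Acod1, Clec4e, Clec4d, Clec4n, Tnfsf15, Mmp9 and Msr1 are 8 genes of activated macrophages and microglia that had lower counts in mouse glial cultures treated with Omomyc than in vehicle cultures. They were chosen by that difference, from raw counts of the same 6 culture libraries, and are 8 of the 17572 genes listed in the culture table. Their culture values are therefore given as a description with no test. Tests are given for their behaviour with age and between sorted cell types, which the difference with Omomyc did not use. The genes and these tests were still chosen with earlier results of these data known.

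The series measured RNA in glia of mice with the genotype TDP-43_Q331K, a mutant transgene of an RNA-binding protein used to model amyotrophic lateral sclerosis. Every group carried it. The sources used here do not name the promoter that drives it, and mice without it were not analysed here. For the cultures, primary astrocytes were replated after 14 days and on the following day received 40 µM Omomyc for 48 h or vehicle (3 libraries each). Freshly sorted cells were microglia taken by Cd11b from cortex at 3 months (3 libraries) and 10 months (4 libraries), astrocytes taken by ACSA2 from cortex and spinal cord at 3, 6 and 10 months (4, 5 and 2 libraries), and oligodendrocyte lineage cells taken by O4 from the same tissues at 3 and 6 months (4 libraries each). No label ties a library to an animal or says that cultures came from separate animals, so p-values measure the spread between these libraries, which may be technical.

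Macrophages and microglia, the resident myeloid cells of the brain, carry surface receptors that bind microbial or damaged material and switch on a set of inducible genes when these or Toll-like receptors are engaged. Marco and Msr1 encode class A scavenger receptors. Clec4e (Mincle), Clec4d (MCL) and Clec4n (also named dectin 2) encode C-type lectin receptors that signal through the adaptor encoded by Fcer1g. Acod1 encodes the enzyme that makes itaconate from cis-aconitate, Tnfsf15 encodes the cytokine TL1A, and Mmp9 encodes gelatinase B, a secreted matrix protease. Omomyc is a small protein derived from MYC that dimerises with MYC family proteins and occupies the E-box sites they bind.

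The 3 lectin genes lie side by side on mouse chromosome 6, in GENCODE vM21 on GRCm38: Clec4n (ENSMUSG00000023349) from 123229843 to 123247021, Clec4d (ENSMUSG00000030144) from 123262111 to 123275265 and Clec4e (ENSMUSG00000030142) from 123281789 to 123289870. Marco (ENSMUSG00000026390) spans 120474538 to 120505024 on chromosome 1, and Acod1 (ENSMUSG00000022126) spans 103046977 to 103056573 on chromosome 14. Tnfsf15 (ENSMUSG00000050395) spans 63727084 to 63745113 on chromosome 4, Mmp9 (ENSMUSG00000017737) spans 164940780 to 164955850 on chromosome 2, and Msr1 (ENSMUSG00000025044) spans 39581685 to 39642673 on chromosome 8. All are annotated as protein coding.

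RefSeq promoter windows on GRCm38.p6 matched 5 of the 8 genes (Marco, Tnfsf15, Clec4d, Clec4e and Acod1). The 250 bases before each start were searched on both strands for 6 letter motifs. CACGTG, the canonical E-box, was in 0 of the 5 windows and in 6.02% of all 32851 windows of that length, and TGANTCA (AP-1) was in 0 of 5 and in 6.75%. GAGGAAGT (PU.1) was in 0 of 5 and in 2.44%. An NF-kB motif (GGG and TTTCC with any 2 bases between them) was found only in the window of Marco among the 5 and in 1.41% of all windows. TTGCNNAA (C/EBP) was found only in that of Clec4e and in 9.56% of all, and TATAAA in those of Clec4e and Acod1 and in 12.4% of all. The motifs do not overlap each other in the 2 windows shown. These are the windows of Marco, which had the largest difference with Omomyc, and of Clec4e, the lectin with the largest difference. Capitals mark the matches, at 21 to 30 bases before the start in Marco and at 59 to 66 (C/EBP) and 24 to 29 (TATA) in Clec4e. A match is a run of letters and not a measured binding site.
Marco, minus strand of chr1:120505025-120505274: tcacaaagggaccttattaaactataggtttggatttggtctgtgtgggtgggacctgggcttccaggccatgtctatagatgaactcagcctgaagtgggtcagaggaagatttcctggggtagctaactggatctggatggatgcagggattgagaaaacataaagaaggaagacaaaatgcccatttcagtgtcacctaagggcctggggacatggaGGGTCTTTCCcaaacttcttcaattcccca
Clec4e, minus strand of chr6:123289872-123290121: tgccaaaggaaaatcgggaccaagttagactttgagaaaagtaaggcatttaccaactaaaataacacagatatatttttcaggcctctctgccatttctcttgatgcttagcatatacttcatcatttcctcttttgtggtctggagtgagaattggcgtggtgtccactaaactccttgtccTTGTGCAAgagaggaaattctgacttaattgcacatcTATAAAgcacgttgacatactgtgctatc

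Culture libraries held between 30117025 and 37470972 counts. Levels are given as CPM, with library sizes scaled by the TMM factors of edgeR. The cultures are labelled astrocytes, and Gfap was between 3459 and 4525 CPM in them. Myeloid lineage transcripts were also present: 29 of 30 lineage markers were listed (Siglech was not), none was at 0 over either group, and their summed level was between 5392 and 10100 CPM with vehicle and between 5623 and 12089 CPM with Omomyc. Replicate 3 had the highest sum in both treatments. Csf1r, the receptor that microglia depend on, was between 329 and 608 CPM with vehicle and between 395 and 776 CPM with Omomyc. The 8 listed of 12 border macrophage markers summed to between 92.5 and 254 CPM with vehicle and between 98.2 and 313 CPM with Omomyc, and 1 of 14 neutrophil markers was listed (Csf3r). In bulk RNA, fewer cells of a type and less RNA per cell cannot be told apart. Same-numbered vehicle and Omomyc libraries deviated from their group means together, so values are also compared pair by pair.

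Marco was at 27.9, 30.4 and 45.9 CPM in vehicle replicates 1, 2 and 3 and at 2.18, 3.90 and 4.92 CPM in the Omomyc replicates. The lowest vehicle library was far above the highest Omomyc library. The mean log2 ratio over the 3 pairs was -3.29 ± 0.36 (SD, n = 3 pairs), a 9.77-fold lower level. Msr1, the other class A scavenger receptor, was at 57.3, 53.6 and 105.8 CPM with vehicle and at 42.1, 48.8 and 78.8 CPM with Omomyc. Here the treatments overlapped, since Omomyc replicate 3 was above vehicle replicates 1 and 2, but Msr1 was lower with Omomyc in 3 of 3 pairs (mean log2 ratio -0.34 ± 0.17). The fitted log2 difference of Msr1 was -0.35 with all libraries, 0.03 without vehicle replicate 3, -0.18 without Omomyc replicate 1, -0.53 without vehicle replicate 2 and -0.67 without Omomyc replicate 3. Marco and Msr1 thus stood at opposite ends of the 8 genes.

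Acod1, the itaconate enzyme, was at 14.8, 14.0 and 21.5 CPM with vehicle and at 1.54, 2.37 and 3.27 CPM with Omomyc. No Omomyc library reached a vehicle library, and the mean log2 ratio was -2.85 ± 0.37 (7.19-fold lower). Tnfsf15, the cytokine TL1A, was at 4.08, 4.99 and 15.1 CPM with vehicle and at 0.908, 0.780 and 1.03 CPM with Omomyc. Its vehicle level was highest in replicate 3, while its 3 Omomyc levels were close together, so its ratio varied most between pairs (mean log2 ratio -2.91 ± 0.88, 7.51-fold lower). Mmp9, the secreted protease, was at 5.69, 4.24 and 9.13 CPM with vehicle and at 2.39, 1.53 and 2.59 CPM with Omomyc. The groups did not overlap and the mean log2 ratio was -1.51 ± 0.28 (2.85-fold lower).

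Among the lectins, Clec4e was at 6.77, 6.12 and 8.91 CPM with vehicle and at 2.24, 2.40 and 2.57 CPM with Omomyc, with no overlap and a mean log2 ratio of -1.58 ± 0.22 (2.99-fold lower). Clec4d was at 23.8, 35.1 and 67.4 CPM with vehicle and at 10.8, 16.4 and 44.9 CPM with Omomyc. Its Omomyc replicate 3 was above vehicle replicates 1 and 2, yet it was lower in 3 of 3 pairs (mean log2 ratio -0.94 ± 0.31, 1.92-fold lower). Clec4n was at 2.50, 3.51 and 4.71 CPM with vehicle and at 1.51, 1.78 and 3.16 CPM with Omomyc. It also overlapped between treatments and was lower in 3 of 3 pairs (mean log2 ratio -0.76 ± 0.21, 1.69-fold lower). The fitted difference of Clec4d (-0.81) was -0.29 without vehicle replicate 3, -0.46 without Omomyc replicate 1 and -1.63 without Omomyc replicate 3, and that of Clec4n (-0.73) was -0.48 without vehicle replicate 3 and -1.12 without Omomyc replicate 3. The 3 lectin genes therefore shared a direction within pairs but not a size.

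**Figure D1:**
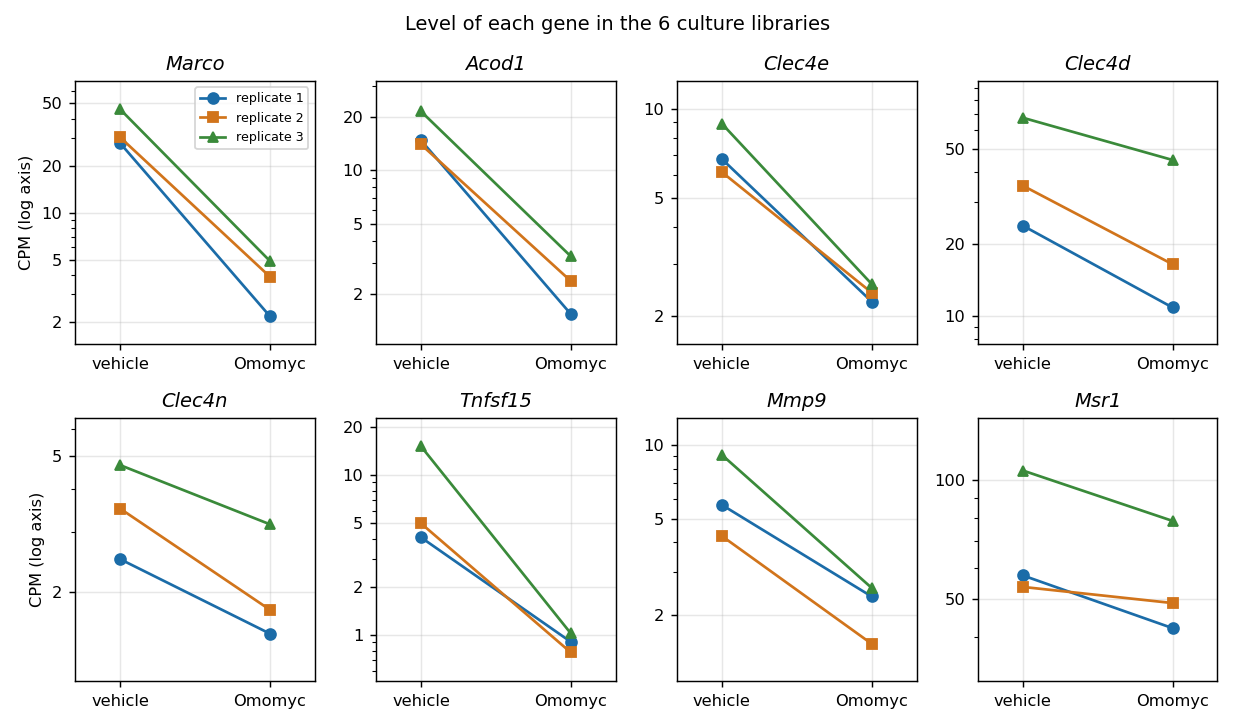
Level of each of the 8 genes in CPM (log axis) in the 6 culture libraries, with vehicle and Omomyc libraries of the same replicate number joined by a line. All 24 lines slope down, steeply for Marco, Acod1 and Tnfsf15 and least for Msr1, and replicate 3 is the highest line at vehicle in every panel.

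Without pairing, 5 of the 8 genes (Marco, Acod1, Clec4e, Tnfsf15 and Mmp9) did not overlap between treatments, where 6.60% of the 16119 tested genes were lower without overlap. Clec4d, Clec4n and Msr1 overlapped, and their lower level was seen within pairs. The median fitted log2 difference of the 8 was -1.57, against -0.0019 over all tested genes, and the choice of the genes fixes that direction. It was -1.41 to -1.64 when a pair was left out in the paired fit, with 8 of 8 lower each time.

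The same counts were also set against the lineage markers of each library, as counts per 1000 counts of the 29 markers. That sum is not a fixed measure of myeloid content, since 14 of the 29 rose with Omomyc in the paired fit given below. Marco went from 4.83 ± 0.32 (SD, n = 3) with vehicle to 0.462 ± 0.112 with Omomyc on this scale, and Acod1 from 2.35 ± 0.33 to 0.301 ± 0.050. Tnfsf15 went from 1.01 ± 0.42 to 0.121 ± 0.038, Clec4e from 1.03 ± 0.20 to 0.325 ± 0.099 and Mmp9 from 0.875 ± 0.197 to 0.290 ± 0.117. The spread of Marco between vehicle replicates shrank on this scale, and replicate 3 was no longer the highest. Clec4d went from 5.53 ± 1.13 to 2.71 ± 0.91, Clec4n from 0.494 ± 0.050 to 0.267 ± 0.0044 and Msr1 from 9.84 ± 1.24 to 7.13 ± 0.53. Per lineage count none of the 8 genes overlapped between treatments, where 1.77% of tested genes were lower without overlap. The genes were chosen on these same libraries, so this is a description and no test. The lineage sum itself was higher with Omomyc in each replicate pair, which lowers every ratio to it. It was 5392, 6377 and 10100 CPM with vehicle and 5623, 6603 and 12089 CPM with Omomyc. Set against Csf1r, which rose in the paired fit, or Itgam, which was not called, each gene was again lower in 3 of 3 pairs. The mean log2 ratio of Msr1 was -0.65 ± 0.16 against Csf1r and -0.26 ± 0.07 against Itgam. Set against Adgre1, which encodes the macrophage surface protein F4/80, Msr1 was lower in 2 of 3 pairs (mean log2 ratio -0.11 ± 0.19) and the other 7 genes in 3 of 3.

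**Figure D2:**
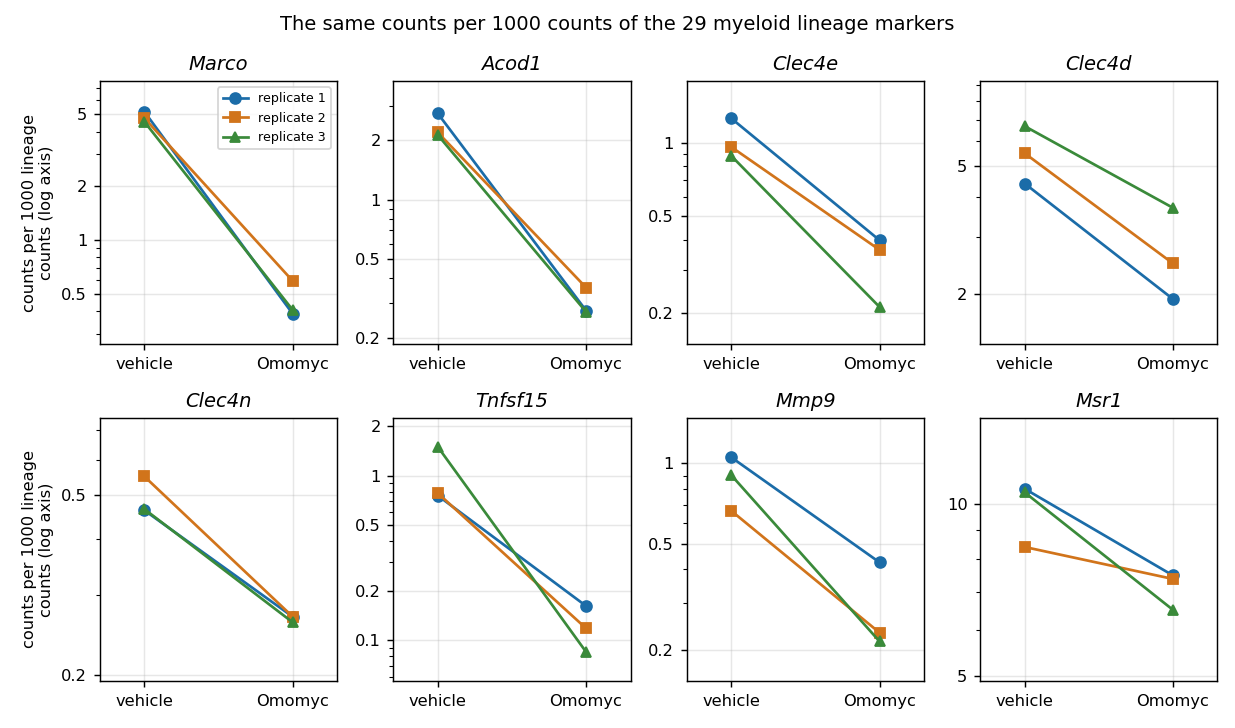
Counts of each of the 8 genes per 1000 counts of the 29 listed myeloid lineage markers (log axis) in the 6 culture libraries, with same-numbered libraries joined. Marco lies between 4.55 and 5.17 with vehicle and between 0.388 and 0.590 with Omomyc, and in no panel does an Omomyc point reach the lowest vehicle point.

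Other genes of the same pathways were taken from 17 lists and tested in edgeR over all genes. The lists were chosen with earlier results of these data known. The calls and adjusted p-values of their genes with Omomyc are therefore not independent of that choice. None of the 220 tested genes of these lists was called in the fit without a replicate term, in which 0.0186% of all genes (3) were called. At an unadjusted p under 0.05, 9 of them were higher and 14 lower, DESeq2 called 1 higher and 6 lower, and limma-voom called 0. With the replicate number as a block 28 were called higher and 19 lower, where 2.23% of all genes were called higher and 1.84% lower, and the calls below are from that fit.

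Of the inducible myeloid response genes, 26 of 32 were tested, with a median log2 difference of -0.50, and 10 fell and 1 rose in the paired fit. Ccl2, a chemokine that draws monocytes, was at 10.0, 10.2 and 9.13 CPM with vehicle and at 4.02, 4.77 and 3.86 CPM with Omomyc. It fell by 1.22 ± 0.10 on the log2 scale (SE, adjusted p = 0.00158), and no Omomyc library reached a vehicle library. Gpr84, a receptor for medium-chain fatty acids, fell by 0.93 ± 0.09 (adjusted p = 0.00271), from 26.1, 25.9 and 33.4 CPM to 12.3, 15.9 and 16.6 CPM. The lipopolysaccharide co-receptor gene Cd14 fell by 0.77 ± 0.08 (adjusted p = 0.00343), and the cytokine gene Il1b fell by 1.17 ± 0.22 (adjusted p = 0.0287). The neutrophil chemokine gene Cxcl2 fell by 1.68 ± 0.25 (adjusted p = 0.0128), and Cxcl1, Ccl3, Fpr1, Fpr2 and Saa3 were the other genes that fell. Ptgs2, the inducible prostaglandin synthase, rose by 0.71 ± 0.07 (adjusted p = 0.00328). DESeq2 without pairing called 3 of these genes lower (Ccl2, Gpr84 and Cxcl2) and limma-voom 0. With a pair left out the paired fit called between 8 and 12 lower.

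The lineage markers lay the other way. Their median log2 difference was 0.25 over 29 tested genes, 14 rose in the paired fit and 0 fell, and 4 were higher at an unadjusted p under 0.05 without pairing (DESeq2 and limma-voom called 0). A higher median was not particular to lineage markers. It was 0.35 over 14 oligodendrocyte markers and 0.22 over 8 border macrophage markers, against 0.03 over 17 astrocyte markers and -0.28 over 7 neuron markers. P2ry12, a purine receptor of resting microglia, was at 9.90, 8.63 and 12.7 CPM with vehicle and at 15.6, 16.0 and 24.5 CPM with Omomyc and rose by 0.84 ± 0.09 (adjusted p = 0.00364). Tmem119, another marker of resting microglia, rose by 0.62 ± 0.06 (adjusted p = 0.00328), and Gpr34 rose by 1.07 ± 0.19 (adjusted p = 0.0228). Fcrls and Laptm5 also rose. Csf1r rose by 0.32 ± 0.06 (adjusted p = 0.0234) and Cx3cr1, the fractalkine receptor, by 0.31 ± 0.06 (adjusted p = 0.0278). Itgam and Adgre1 did not pass, at -0.08 ± 0.07 (adjusted p = 0.603) and -0.22 ± 0.05 (adjusted p = 0.0616). Without replicate 1, and without replicate 3, the paired fit called 8 lineage markers higher, and without replicate 2 it called 19. The unpaired median was -0.07 without Omomyc replicate 3, 0.14 without vehicle replicate 1, 0.38 without Omomyc replicate 2, 0.47 without Omomyc replicate 1 and 0.52 without vehicle replicate 3.

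**Figure D3:**
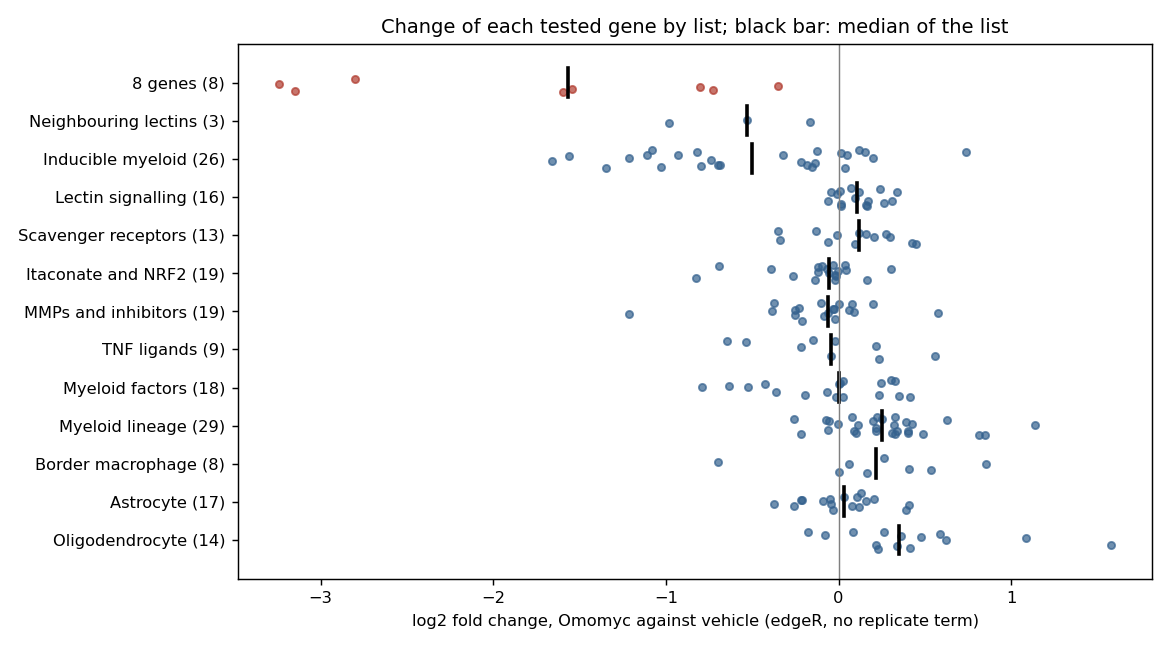
Fitted log2 difference between Omomyc and vehicle for each tested gene (points) of 13 gene lists, with the number tested in brackets and the median of each list as a black bar. The 8 genes lie between -3.24 and -0.35 by choice, inducible myeloid genes have a median of -0.50 and myeloid lineage markers a median of 0.25.

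Next to the 3 lectin genes, 3 of 6 neighbouring C-type lectin genes were tested. Clec4a1 was at 8.12, 13.6 and 25.3 CPM with vehicle and at 2.75, 5.52 and 15.4 CPM with Omomyc and fell by 1.11 ± 0.15 in the paired fit (adjusted p = 0.00842). Its Omomyc replicate 3 was above vehicle replicates 1 and 2, as for Clec4d. Clec4a2 (-0.57 ± 0.13, adjusted p = 0.0558) and Clec4a3 (-0.21 ± 0.23, adjusted p = 0.663) did not pass. These genes are close relatives in sequence, so reads shared between them could have been split in counting. The shared adaptor Fcer1g was at 48.8, 63.7 and 94.8 CPM with vehicle and at 50.0, 56.5 and 102 CPM with Omomyc, a difference of -0.01 ± 0.07 (adjusted p = 0.965). Of 16 tested genes of lectin receptor signalling, 1 rose (Plcg2, a phospholipase, by 0.35 ± 0.06, adjusted p = 0.0227) and 0 fell. Of 13 tested other scavenger receptors, 1 rose (Lrp1, by 0.48 ± 0.09, adjusted p = 0.0293) and 0 fell.

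Around Acod1, 3 of 19 tested genes of itaconate, the citric acid cycle and the NRF2 stress response fell and 0 rose. Slc7a11, the cystine transporter, fell by 0.82 ± 0.09 (adjusted p = 0.00364) from 11.3, 13.5 and 27.1 CPM to 6.26, 8.42 and 14.5 CPM. The citrate and dicarboxylate transporter gene Slc13a3 fell by 0.68 ± 0.11 (adjusted p = 0.0143) and the haem oxygenase gene Hmox1 by 0.40 ± 0.05 (adjusted p = 0.00879). Around Mmp9, 2 of 19 tested proteases, activators and inhibitors fell and 0 rose. Lcn2, a siderophore-binding protein that can complex with gelatinase B, fell by 1.18 ± 0.13 (adjusted p = 0.00416) from 35.2, 24.2 and 21.1 CPM to 12.1, 10.4 and 12.3 CPM, and Mmp19 was the other. The inhibitor Timp1 was between 17.2 and 51.1 CPM with vehicle and between 18.5 and 57.9 CPM with Omomyc, a difference of 0.06 ± 0.08 (adjusted p = 0.744). Of 9 tested other TNF family genes 0 passed in either direction. Tnfrsf25, the receptor of TL1A, was near the limit of detection, at 15 to 17 counts with vehicle and 8 to 13 with Omomyc (-0.66 ± 0.33, adjusted p = 0.317).

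Of 18 myeloid transcription factors 2 rose (Ikzf1 and Irf8) and 2 fell. The NF-kB cofactor gene Nfkbiz fell by 0.64 ± 0.07 (adjusted p = 0.00465) and Cebpb, a factor of inflammatory macrophages, by 0.44 ± 0.07 (adjusted p = 0.0181). Myc itself was at 32.9, 31.4 and 32.5 CPM with vehicle and at 31.4, 33.7 and 36.5 CPM with Omomyc (0.07 ± 0.07, adjusted p = 0.633). Of 17 astrocyte markers 2 rose (Slc1a2 and Slc4a4) and 0 fell, and Gfap was among those not called (-0.21 ± 0.08, adjusted p = 0.205). Of 14 oligodendrocyte markers 3 rose (Mbp, Gpr17 and Enpp6), and of 10 endothelial markers 2 rose (Slco1a4 and Flt1). Of 9 mural or fibroblast markers 1 rose (Col3a1), of 8 border macrophage markers 1 rose (Apoc2) and of 7 neuron markers 1 fell (Tubb3). Neither of the 2 tested lymphocyte markers passed, nor did Csf3r.

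Per kilobase of exon, a scale that allows levels of different genes to be compared, vehicle cultures ranked Clec4d (26.3 CPM per kb), Marco (18.0), Msr1 (11.4), Acod1 (6.39), Clec4n (2.52), Tnfsf15 (2.41), Mmp9 (1.80) and Clec4e (1.46). Neighbours in that order overlapped between libraries except Msr1 and Acod1, and Acod1 and Clec4n. With Omomyc the order was Clec4d (15.04), Msr1 (8.92), Marco (1.90), Clec4n (1.51), Acod1 (0.913), Mmp9 (0.613), Clec4e (0.484) and Tnfsf15 (0.270). There only Msr1 and Marco, and Clec4e and Tnfsf15, did not overlap as neighbours. The mean of Marco was thus above that of Msr1 with vehicle, with overlapping ranges, and below it with Omomyc, with no overlap. These ranges are between libraries. Within each vehicle library Marco was above Msr1, at 14.5 against 9.04, 15.8 against 8.45 and 23.9 against 16.7 CPM per kb in replicates 1, 2 and 3.

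The genes whose log2 levels followed the mean profile of the 8 most closely over the 6 libraries, among 12073 candidates, were Sv2a (r = 0.996), Rgs16 (r = 0.989) and Sez6l (r = 0.989). These libraries share the treatment split and the replicate numbers, so r is a description. The value of r does not show the size of a difference. In the paired fit the log2 difference was -0.23 for Sv2a, -0.96 for Rgs16 and -0.96 for Sez6l. The nearest gene of both Marco (r = 0.994) and Acod1 (r = 0.995) was Slc6a8, the creatine transporter gene, that of Clec4e was Nkd1 (r = 0.998) and that of Clec4d was Rasgef1b (r = 0.999). Their paired log2 differences were -0.37 (Slc6a8), -0.99 (Nkd1) and -0.24 (Rasgef1b). None of the genes named here as followers was in the list of lineage markers.

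Freshly sorted cells showed where transcripts of the 8 genes were found. The sorts held the markers of their labels: lineage markers summed to at least 38418 CPM in microglia, astrocyte markers to at least 28567 CPM in astrocyte libraries and oligodendrocyte markers to at least 84510 CPM in oligodendrocyte libraries. Oligodendrocyte markers also summed to between 16908 and 38849 CPM in the astrocyte libraries. The tables come from different library kits (a 3′ end kit for microglia, whole-transcript kits for the rest), so levels are set side by side and not tested across them. In the 7 microglia libraries, with 4145129 to 5612071 counts each, the 8 genes had 1483 counts in all. The 8 oligodendrocyte libraries (9752907 to 18598533 counts each) held 173 and the 11 astrocyte libraries (6151583 to 20763190 counts each) held 88. The 6 culture libraries held 27770. The summed level of the 8 genes was between 13.9 and 96.1 CPM in microglia, between 0.618 and 2.22 CPM in oligodendrocyte libraries and at most 1.65 CPM in astrocyte libraries, and between 63.7 and 279 CPM in culture.

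In microglia Mmp9 (2.77 to 45.3 CPM) and Msr1 (3.70 to 17.8 CPM) had the most counts, 554 and 420. Of these, 250 and 62 were in 3 month replicate 1. Marco had 0 counts in 7 of 7 microglia libraries, which allows up to 0.0834 CPM over these libraries (3 counts of their total; such limits cover counting error only). The astrocyte libraries held 2 Marco counts and the oligodendrocyte libraries 6. Marco was thus at least 2.18 CPM in every culture library and at or near 0 in every sorted population. Tnfsf15 had 6 counts in microglia, all in 1 library (1.09 CPM), 6 in astrocytes and 3 in oligodendrocytes, where every culture library was at or above 0.780 CPM.

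The myeloid content of the sorts was far higher in microglia than in the other sorts, and the order of those 2 depended on the measure. Csf1r was between 2581 and 4426 CPM in microglia, between 8.04 and 18.2 CPM in oligodendrocyte libraries and between 2.91 and 7.76 CPM in astrocyte libraries. The summed lineage markers were between 245 and 350 CPM in oligodendrocyte libraries of 3 months and between 231 and 303 CPM in astrocyte libraries of that age. At 6 months they were between 221 and 237 CPM in oligodendrocyte libraries and between 236 and 291 CPM in astrocyte libraries, and the summed 8 genes had a median of 1.05 CPM in the former and 1.24 CPM in the latter. Per 1000 Csf1r counts the 8 genes together had 11.9 counts in microglia, 288 in culture, 101 in oligodendrocyte libraries and 148 in astrocyte libraries. These ratios carry the kits' different coverage of each transcript, which was not tested, and the last 2 rest on few counts.

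**Figure D4:**
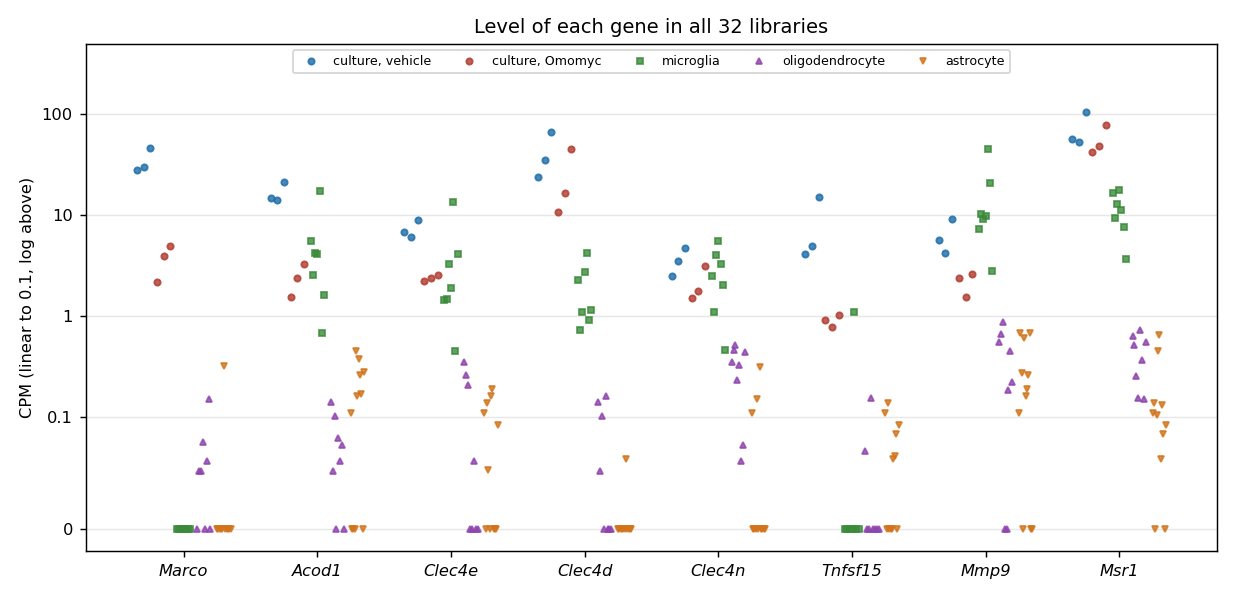
CPM of each of the 8 genes in all 32 libraries, by culture treatment and sorted cell type (axis linear up to 0.1 CPM and logarithmic above). The highest point is a vehicle culture point for Marco, Acod1, Clec4d, Tnfsf15 and Msr1, with Omomyc points among the vehicle points for Clec4d and Msr1. The highest microglia point lies within or above the vehicle points for Acod1, Clec4e, Clec4n and Mmp9. For Acod1, Clec4e and Mmp9 that point is 3 month replicate 1. The next highest microglia points are 5.56 CPM for Acod1 and 4.16 CPM for Clec4e, under all vehicle points. For Mmp9 the next highest is 21.0 CPM, above them. Astrocyte and oligodendrocyte points stay under 1 CPM.

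None of the 8 genes had enough counts to be tested in the sorted astrocytes or oligodendrocytes, with age or between the cell types. Counts were compared between the cell types at 3 and 6 months in a fit without a filter on low counts, which called 32.6% of all genes. In it 2 of the 8 genes were called, both lower in astrocytes. Clec4n had 1 and 6 counts in astrocytes of 3 and 6 months and 27 and 10 in oligodendrocyte libraries, a log2 difference of -2.54 ± 0.66 (adjusted p = 0.000576). Msr1 had 4 and 11 counts in astrocytes and 26 and 22 in oligodendrocyte libraries, a log2 difference of -1.81 ± 0.50 (adjusted p = 0.00127). In the filtered fit, which called 74.6% of genes, 8 of 9 fixed myeloid markers were tested. Of these 7 were lower in astrocytes, with log2 differences from -2.50 (Spi1, adjusted p = 8.89e-06) to -1.42 (Tmem119, adjusted p = 0.000368), among them Csf1r (-1.94 ± 0.16, adjusted p = 4.35e-10). P2ry12 was higher in astrocytes (0.46 ± 0.13, adjusted p = 0.00317), and the summed lineage markers were not lower there at 6 months. The part of myeloid RNA in both differences was not tested. Mmp9, at 8 and 20 counts in astrocytes and 38 and 11 in oligodendrocyte libraries, was not called (adjusted p = 0.342).

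Whether the genes change between 3 and 10 months was tested in microglia, for 6 of the 8 (Marco and Tnfsf15 had too few counts). Of the 6, 0 passed, where 3.21% of 12320 tested genes did, and 2 had an unadjusted p under 0.05. limma-voom called 0, and DESeq2, which gave an adjusted p for 2 of them (Mmp9 and Msr1), called 0. One library of 3 months, replicate 1, stood apart: it was above every other microglia library for Acod1, Clec4e, Clec4d, Tnfsf15 and Mmp9. The neutrophil markers moved with it. Their summed level was 2224 CPM in that library and between 443 and 795 CPM in the other 6, 1 of 14 was at 0 over the 3 month libraries and 2 of 14 over the 10 month libraries. S100a8 was at 1002 CPM in it and at most 494 CPM elsewhere, S100a9 at 648 and at most 186 CPM, and Ly6g at 30.1 and at most 4.21 CPM. Their part in the levels of the 5 genes was not tested.

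Mmp9 was at 45.3, 21.0 and 2.77 CPM in 3 month replicates 1, 2 and 3 and at 7.21, 10.2, 9.23 and 9.76 CPM in the 4 libraries of 10 months. The younger libraries spread to both sides of the older ones, and the difference was -1.34 ± 0.56 (SE, adjusted p = 0.230). It was -0.37 (adjusted p = 0.793) without 3 month replicate 1 and -1.86 (adjusted p = 0.0228) without 3 month replicate 3, and it passed without a filter on low counts (adjusted p = 0.0112), a fit that called 3.57% of genes. Msr1 was at 11.2, 7.69 and 3.70 CPM at 3 months and at 16.7, 9.33, 13.03 and 17.8 CPM at 10 months. The lowest older library was below the highest younger one, and the difference was 0.90 ± 0.42 (adjusted p = 0.283), or 1.32 without 3 month replicate 1 (adjusted p = 0.137). Csf1r was higher at 10 months as well, by 0.52 ± 0.12 (adjusted p = 0.0257), and the summed lineage markers were between 38418 and 46768 CPM at 3 months and between 49685 and 66412 CPM at 10 months. The part of that difference in the level of Msr1 was not tested.

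Acod1 was at 17.4, 0.679 and 1.62 CPM at 3 months and at 5.56, 2.56, 4.16 and 4.11 CPM at 10 months. All 4 older libraries lay between the highest and the other younger libraries. The difference of -0.70 ± 0.79 (adjusted p = 0.722) turned to 1.82 without 3 month replicate 1 (adjusted p = 0.295). Clec4e was at 13.6, 0.452 and 4.16 CPM at 3 months and between 1.44 and 3.26 CPM at 10 months (-1.59 ± 0.83, adjusted p = 0.352, and -0.19 without replicate 1). Clec4d was between 0.905 and 4.17 CPM at 3 months and between 0.732 and 2.74 CPM at 10 months (-0.30 ± 0.97, adjusted p = 0.917), and its difference was 0.72 without replicate 1. Clec4n was between 0.462 and 3.26 CPM at 3 months and between 1.10 and 5.48 CPM at 10 months (0.74 ± 0.88, adjusted p = 0.734), or 1.38 without replicate 1. Without 3 month replicate 1 the log2 differences of 5 of the 6 genes moved by over 1.5 times or changed sign.

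**Figure D5:**
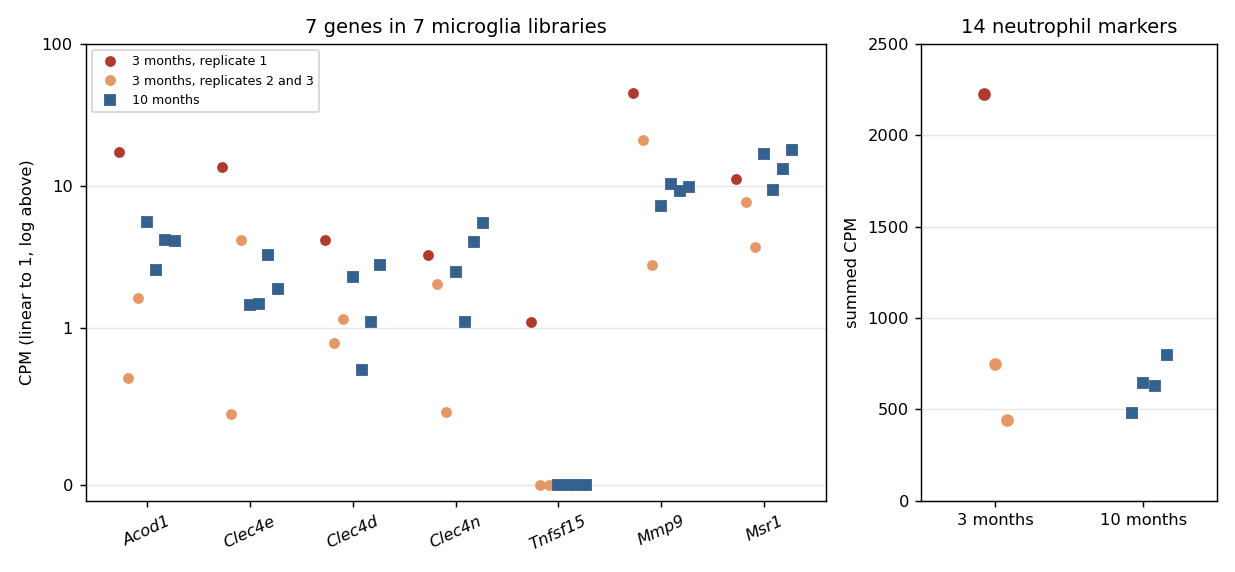
Left, CPM (linear up to 1, logarithmic above) of 7 of the 8 genes in the 3 microglia libraries of 3 months and the 4 of 10 months; Marco is left out because it has 0 counts in all 7. Right, summed CPM of 14 neutrophil markers in the same libraries, where 3 month replicate 1 is at 2224 and the others lie between 443 and 795.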

How the data were processed

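Raw counts per gene, 1 column per library, were used as deposited by the authors in 4 tables, without normalization. The submitters' processing notes name STAR 2.7.7a, featureCounts 2.0.1, UMI-tools 1.0.1, DESeq2 and fastp, and the builds mm10, GRCm38.p6 and GRCm39, but do not tie a build to a table. The TPM and normalized count tables were left out. Per the labels, culture, microglia and the other sorted libraries came from 3 kits, so these tables were not tested against each other.

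Identifiers were matched to symbols, positions and exon lengths in GENCODE vM21 (17559 of 17572 in culture, 52093 of 53700 in microglia). Every comparison was fitted over all genes with edgeR 4.0.16 in R 4.3.3 (TMM, filterByExpr at a minimum count of 10, robust quasi-likelihood F test, two-sided), and a gene was called where its Benjamini-Hochberg adjusted p was under 0.05. Scripts were tested on simulated data. Errors of fitted differences are standard errors. Same-numbered culture libraries deviated from their group means together (r = 0.628, 0.432 and 0.682), so the fit with the replicate number as a block is given there. The numbers do not pair microglia (r = 0.0032, -0.0394 and 0.0235). The 8 genes, the 17 lists (285 genes) and the tests were chosen with earlier results of these data known. Named were the 8 genes, fixed markers, the neighbouring lectins and up to 4 called genes with the smallest p per list, taken from the paired fit because the unpaired one called none of them. Gpr34, Cxcl2, Il1b, Cxcl1, Ccl3, Fpr1, Fpr2 and Saa3 were added after their values were seen. Alternatives were RLE scaling, other filters, DESeq2 1.42.0, limma-voom (limma 3.58.1), the block, fits of only 2 ages and leaving out libraries. Leaving out whole pairs was added after seeing the data.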

Additional observations from a re-analysis of the deposited data

How the results depend on the processing

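Without a replicate term, the count of genes called between Omomyc and vehicle (3) was 0 with a filter at 1 CPM, 97 with DESeq2 and 656 with the replicate block, and between 0 and 1 with 1 library left out. In the fit with the replicate block it was 566, 1085 and 1130 without pair 1, 2 and 3. With a pair left out, lineage markers called higher numbered 8 to 19 and inducible genes called lower 8 to 12. Leaving out 1 library moved the median of the 8 genes between -1.74 and -1.30 and that of the lineage markers between -0.0657 and 0.52. The differences of Marco, Acod1, Clec4e, Clec4d, Clec4n, Tnfsf15 and Mmp9 in culture kept their direction under every alternative run. With 1 culture library left out, unpaired differences spanned 0 for Msr1 (-0.67 to 0.0301), Csf1r (-0.0346 to 0.66), Cx3cr1 (-0.0497 to 0.66), Itgam (-0.45 to 0.31), Adgre1 (-0.69 to 0.23), Clec4a3 (-1.06 to 0.46), Fcer1g (-0.38 to 0.31), Timp1 (-0.60 to 0.66) and Ptgs2 (-0.0637 to 1.47). Fcer1g was at -0.0053 with limma-voom and at -0.0080 with the block, against 0.01.

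In microglia the count with age (395) was 730 without a filter, 748 with DESeq2, 211 with the replicate block and between 51 and 396 with 1 library left out. Acod1 was higher at 10 months with limma-voom (0.21) and with the block (0.39), and between -1.22 and 1.82 with 1 library left out; Clec4d was between -0.64 and 0.72. With 1 library left out, counts of called genes were between 1161 and 2637 (astrocytes, 6 against 3 months), 1052 and 4340 (10 against 3 months), 2214 and 4925 (oligodendrocytes) and 11919 and 12438 (astrocytes against oligodendrocytes). RLE scaling moved the median of all genes by under 0.1 in each comparison. The causes were not tested. The 8 genes stayed under the filter on low counts in sorted astrocytes and oligodendrocytes. Those libraries held at least 6151583 counts each, against at most 5612071 in microglia libraries, where 6 of the 8 genes passed. The kits differ, so these totals are not a like measure of detection, and the part of depth was not tested.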
